A study of Mus musculus with 13 samples.

Results

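The 30 genes described here are transcripts of fat cells, measured by RNA sequencing in whole mouse mammary glands in which the tyrosine kinase gene Jak1 was conditionally knocked out and in wildtype glands. They were taken as a list of symbols, and all 30 were found among the 23951 symbols of both deposited expression tables. The list holds secreted proteins (Adipoq, Lep, Retn, Cfd, Rbp4, Angptl4) and proteins of lipid droplets and fatty acid transport (Plin1, Plin4, Cidec, Cidea, Fabp4, Lgals12, Adig). It also holds genes of fat breakdown and its control (Lipe, Pnpla2, Mgll, Adrb3, Pde3b, Acvr1c, Aqp7) and of glucose and glycerol phosphate supply (Slc2a4, Pck1, Gpd1, with the carbonic anhydrase gene Car3). The remaining members concern transcriptional control, heat production, hormone reception and fat growth (Pparg, Ppargc1a, Ucp1, Ghr, Mest, Nnat).

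The mammary gland of the mouse lies in a pad of white fat, and during lactation the fat cells of that pad lose most of their lipid and the milk-secreting epithelium fills the space. After weaning the epithelium dies back in a process called involution, and fat cells fill with lipid again. JAK1 passes signals of cytokine receptors to STAT transcription factors, and signalling of this kind is known both in the involuting epithelium and in fat cells. The question put to the 30 genes was whether their levels at involution differed with the Jak1 genotype, and how much of any difference rested on single libraries.

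The 13 libraries fell into 4 groups. Lactating glands were taken at day 7, from 3 wildtype controls (mice M42186, M43768, M44175) and 3 knockouts (mice M44174, M42734, M43767). Involuting glands were taken at day 2, from 3 wildtype controls (M44448, M43768, M43914) and 4 knockouts (M43196, M43767, M44176, M44440). The labels give neither the Cre driver nor the targeted cell type, the allele or the age of the mice, so which cells of the gland had lost Jak1 is not known here. The titles carry 11 mouse numbers, of which 2 (control M43768 and knockout M43767) stand at both stages, and whether a mouse was sampled at both is not given.

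Values are FPKM, a fragment count corrected for transcript length and library size. Jak1 itself, as FPKM of the whole gene in whole tissue, stood between 6.18 and 14.2 in the lactating controls and between 9.51 and 11.2 in the lactating knockouts. At involution it stood between 24.0 and 24.6 in the controls and between 17.3 and 26.3 in the knockouts, so the groups overlapped at both stages and these values do not check the genotype labels. Sequencing depth, known here only relative to the mean of each table, lay between 0.723 and 1.29 for the lactation table and between 0.485 and 1.50 for the involution table. Control M44175 stood apart at lactation, with a sum of FPKM of 871630 against 312976 to 421592 in the other 5 libraries. Knockout M43196 stood apart likewise at involution, at 1367560 against 590437 to 958496 in the other 6. The small RNA gene Mir6236 alone made up 44.0% of the sum in M43196, 32.7% in control M44448 and 3.05% to 10.8% in the others of that stage, and 29.1% in M44175 at lactation against 8.73% to 19.6%. The scaling factor of M43196 was 0.999, and without it the median log2 difference of the members at involution was 0.51. Skeletal muscle markers, summed over 8 genes, ranged from 4.91 FPKM in knockout M43196 to 6182 FPKM in knockout M44176 at involution, with 1703 FPKM in control M44448 and 776 FPKM in knockout M43767. At lactation this sum was 1198 FPKM in knockout M44174 and between 0.995 and 296 FPKM elsewhere. In whole tissue, fewer fat cells and less transcript per fat cell cannot be told apart.

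The 4 promoter stretches below show examples of members with and without a searched motif upstream of their starts. They are the 250 bases before the transcription start from RefSeq, build GRCm38.p6, which is not the build mm9 that the authors named, and they run 5′ to 3′ on the strand of the gene. Capitals mark matches to TTGCNNAA, a form of the site that C/EBP factors bind, in Plin1 and Lep, and to TTCNNNGAA, the palindrome that STAT factors bind, in Adig. Plin1 lies at chr7:79732777-79733026 (minus strand), Lep at chr6:29059971-29060220, Adig at chr2:158502362-158502611 and Nnat at chr2:157559828-157560077 (plus strand). The genes printed were picked after the matches had been seen.
Plin1: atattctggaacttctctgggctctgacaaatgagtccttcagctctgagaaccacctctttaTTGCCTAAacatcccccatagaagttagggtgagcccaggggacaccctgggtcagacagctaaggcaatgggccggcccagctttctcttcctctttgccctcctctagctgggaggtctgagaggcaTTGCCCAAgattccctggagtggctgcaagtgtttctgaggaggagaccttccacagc
Lep: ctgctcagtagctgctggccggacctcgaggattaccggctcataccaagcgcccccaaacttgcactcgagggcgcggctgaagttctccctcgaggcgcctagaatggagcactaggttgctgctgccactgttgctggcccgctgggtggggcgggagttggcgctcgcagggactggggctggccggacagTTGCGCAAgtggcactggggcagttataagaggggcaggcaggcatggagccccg
Adig: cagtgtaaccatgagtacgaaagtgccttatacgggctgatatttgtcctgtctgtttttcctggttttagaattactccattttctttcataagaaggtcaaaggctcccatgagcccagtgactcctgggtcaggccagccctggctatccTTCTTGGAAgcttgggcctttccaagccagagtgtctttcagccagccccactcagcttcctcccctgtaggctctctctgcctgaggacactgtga
Nnat: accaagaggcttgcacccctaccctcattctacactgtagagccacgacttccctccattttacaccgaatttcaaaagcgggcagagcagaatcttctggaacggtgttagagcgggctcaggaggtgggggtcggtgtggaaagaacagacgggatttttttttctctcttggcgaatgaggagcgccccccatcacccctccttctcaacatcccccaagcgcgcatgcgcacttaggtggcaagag

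The RefSeq table matched 21 of the 30 members with 32 promoter windows of 300 bases, 250 before and 50 after the start, and 4 motifs were searched on both strands. TTGCNNAA was found in 6 of the 32 windows (18.8%), those of Cidec, Lep, Mest, Plin1, Pparg and Rbp4, against 10.8% of all 32851 windows. In Plin1 the matches begin 187 and 58 bases before the start, and in Lep 55 bases before it. TTCNNNGAA was found in 2 windows (6.25%), those of Adig, 97 bases before the start, and Lipe, against 8.3% of all windows. TATAAA was found in 3 windows (9.38%), those of Ghr, Pparg and Rbp4, against 13.6%. The direct repeat with a spacer of 1 base that PPARG binds with its partner RXR was found in 0 of the members' windows and in 0.0396% of all. These are matches of letters and not measured binding, and Nnat, whose groups were apart at involution, held none of the 4.

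At involution most members lay on one side of the genotype comparison, but with wide errors and none past the test. Of 28 members tested, 27 had a positive log2 difference, knockout minus control, with a median of 0.52, against 51.8% of all 12509 genes tested and a median of 0.01. Lep is among the 27 by its fitted log2 difference, although its mean was lower in the knockouts (7.09 FPKM) than in the controls (8.24 FPKM). None of the 28 passed an adjusted p of 0.05 in limma over all genes, while 9 of all genes (0.0719%) did. An unadjusted p under 0.05 was reached by 3 members, against 6.84% of all genes. These 3, Adrb3 and Nnat higher and Angptl4 lower in the knockouts, were also the only members of the 28 tested whose 7 libraries did not overlap between genotypes, against 7.09% of all genes (2.67% higher and 4.42% lower). Mest and Ppargc1a stood below 1 FPKM in too many libraries to be tested.

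**Figure D1:**
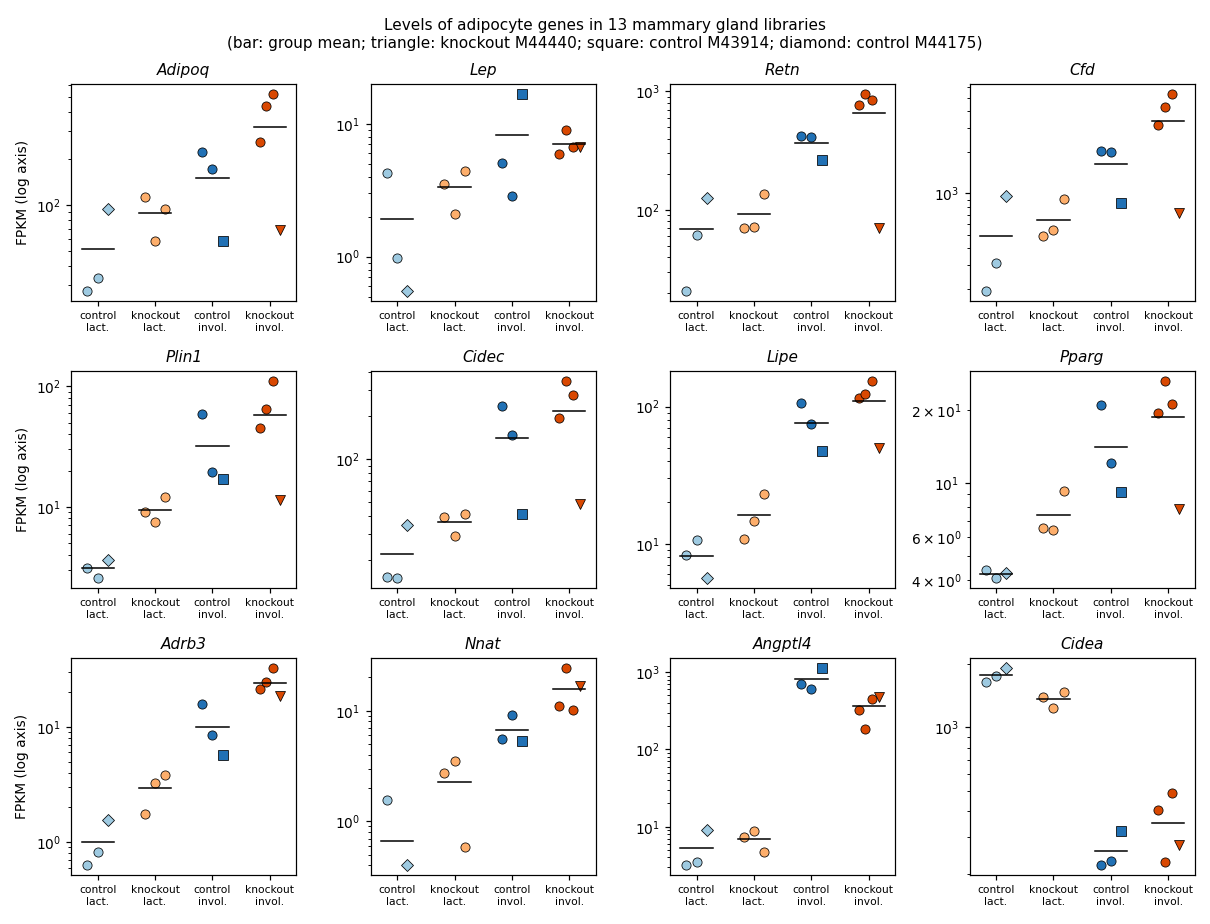
FPKM (log axis, a separate range in each panel) of 12 adipocyte genes in each of the 13 libraries, by genotype and stage, with bars at the group means. A value of 0 cannot be drawn on this axis, so control M43768 at lactation is missing from the Nnat panel. Control M43914 (square) and knockout M44440 (triangle) are the low points of most involution groups, while Angptl4 has the opposite order of groups at involution.

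Among the secreted proteins, adiponectin (Adipoq), a hormone made almost only by fat cells, stood at 220, 170 and 58.4 FPKM in the involuting controls M44448, M43768 and M43914. In the knockouts M43196, M43767, M44176 and M44440 it stood at 256, 441, 524 and 68.5 FPKM. Thus 3 of 4 knockouts were above every control and M44440 was below 2 of the 3, and the difference was 0.98 ± 0.75 (log2 ± SE, adjusted p = 0.943). Complement factor D (Cfd), a protease that fat cells secrete in bulk, had the same layout at a far higher level. It stood at 2032, 1999 and 853 FPKM in control glands and at 3167, 4253, 5306 and 720 FPKM in the knockouts, with M44440 the lowest of all 7 libraries. Its difference was 0.85 ± 0.70 (adjusted p = 0.950).

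Resistin (Retn), a fat cell hormone of mice, stood at 419.9, 416 and 262 FPKM in the involuting controls. Its knockout libraries read 766, 948, 838 and 70.0 FPKM, so M44440 was below every other knockout and every control. The difference was 0.37 ± 0.87 (adjusted p = 0.998). Retinol binding protein (Rbp4) had group means of 51.4 ± 32.5 (SD, n = 3) and 71.8 ± 43.3 FPKM (n = 4), also with M44440 lowest at 14.4 FPKM.

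Leptin (Lep), the hormone that reports fat stores, did not follow this order of libraries. In the controls it stood at 5.10, 2.84 and 16.8 FPKM, with M43914 highest, the library that was the lowest control for 25 of the 30 members. In the knockouts it stood at 5.98, 8.96, 6.75 and 6.65 FPKM, inside the range of the controls (0.12 ± 0.46, adjusted p = 0.998). Relative to Plin1 in the same library, Lep was at 0.984 in control M43914 and 0.580 in knockout M44440, against 0.0609 to 0.147 in the other 5 involution libraries.

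Angiopoietin-like 4 (Angptl4), a secreted inhibitor of lipoprotein lipase that fasting fat cells and other cells make, was the exception among the members. The controls stood at 714, 609 and 1131 FPKM and the knockouts at 323, 186, 455 and 480 FPKM, so every knockout was below every control. The difference was -1.19 ± 0.38 with an unadjusted p of 0.0132 and an adjusted p of 0.563. It was negative under each of the 15 alternatives run, between -1.38 and -0.91, with adjusted p between 0.342 and 0.999. Its highest libraries within each group were M43914 and M44440, which were the lowest for most other members.

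The genes of droplets and fatty acid carriage had a positive log2 difference for 7 of 7, with a median of 0.64 and 0 past the test. The fatty acid carrier Fabp4 was the most abundant member, at 5338, 5153 and 2963 FPKM in control glands and 7130.1, 9153, 9437 and 3651 FPKM in the knockouts. Again 3 knockouts exceeded every control and M44440 lay within the range of the controls (0.69 ± 0.43, adjusted p = 0.918). Perilipin 1 (Plin1), which coats the droplets of fat cells and gates access of lipases, stood at 59.1, 19.4 and 17.0 FPKM in the controls. Its knockouts read 44.8, 65.2, 111 and 11.5 FPKM, so that control M44448 lay amid the knockouts and M44440 was the lowest of the 7 (0.72 ± 0.75, adjusted p = 0.974). Adipoq and Plin1 are given by library in addition to the genes that the naming rule picked, and were added after their values had been seen.

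Plin4, another droplet coat gene, had means of 18.3 ± 8.36 (SD, n = 3) and 35.3 ± 16.9 FPKM (n = 4) and the largest difference of the droplet genes at involution (0.90 ± 0.45, adjusted p = 0.818). Cidec, whose protein merges small droplets into large ones, had means of 140 ± 95.5 and 216 ± 129 FPKM and was lowest in M43914 (41.7) and M44440 (48.4). Adig, a small fat cell protein also called adipogenin, and the galectin gene Lgals12 had differences of 0.45 ± 0.42 and 0.24 ± 0.33. Cidea, a relative of Cidec known from brown fat and also from the milk-secreting epithelium, stood at 222, 232 and 323 FPKM in control glands and at 406, 230, 489 and 276 FPKM in the knockouts. Its groups overlapped (0.42 ± 0.30, adjusted p = 0.940), and its lowest libraries were M44448 and M43767, not M43914 and M44440.

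Among the genes of fat breakdown 7 of 7 had a positive log2 difference, the median being 0.52. The β3-adrenergic receptor (Adrb3), through which noradrenaline starts lipolysis in fat cells, stood at 15.9, 8.47 and 5.71 FPKM in the controls. The knockouts stood at 21.5, 24.4, 32.4 and 18.5 FPKM, all above the highest control, M44440 included. The difference was 1.29 ± 0.33 with an unadjusted p of 0.00432 and an adjusted p of 0.417. It stayed between 0.98 and 1.67 over the 15 alternatives, with adjusted p between 0.198 and 0.937. Relative to Plin1, Adrb3 was at 1.61 in M44440 and at 0.269 to 0.479 in the other involution libraries.

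Adipose triglyceride lipase (Pnpla2), which takes the first step of lipolysis, stood at 245, 187 and 72.0 FPKM in control glands and at 239, 285, 304 and 94.9 FPKM in the knockouts. Hormone-sensitive lipase (Lipe), which takes the next step, stood at 106, 75.1 and 47.2 FPKM in control glands and at 115, 123, 153 and 49.9 FPKM in the knockouts. Lipe overlapped between genotypes through M44440 and Pnpla2 through M44440 and M43196 (0.52 ± 0.53 for Pnpla2 and 0.52 ± 0.42 for Lipe, adjusted p = 0.974 and 0.950). Monoglyceride lipase (Mgll), which completes the release of fatty acids, had means of 56.0 ± 14.4 and 83.6 ± 36.0 FPKM. The phosphodiesterase gene Pde3b, through which insulin restrains lipolysis, had means of 3.56 ± 1.99 and 6.11 ± 4.31 FPKM. Acvr1c, an activin receptor of fat cells, and the glycerol channel gene Aqp7 had differences of 0.45 ± 0.33 and 0.16 ± 0.34.

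All 4 genes of glucose uptake, glycerol phosphate and carbonic anhydrase had a positive log2 difference, the median being 0.70, and 0 passed the test. Carbonic anhydrase 3 (Car3), one of the most abundant proteins of mouse fat cells and also present in skeletal muscle, stood at 1275, 1043 and 131 FPKM in the controls. Its knockouts read 1003, 2873, 2241 and 255 FPKM. M43914 and M44440 therefore stood well below the rest in both groups, and the standard error was as large as the difference (1.04 ± 1.03, adjusted p = 0.974). Glycerol-3-phosphate dehydrogenase (Gpd1), which supplies the backbone of triglycerides, stood at 208, 132 and 113 FPKM in control glands and at 263, 179.6, 251 and 53.7 FPKM in the knockouts (0.15 ± 0.55, adjusted p = 0.998). Pck1, which makes glycerol phosphate from lactate and amino acids in fat cells, had means of 64.2 ± 47.7 and 111 ± 70.2 FPKM. The insulin-regulated glucose transporter gene Slc2a4 had means of 12.1 ± 4.10 and 18.5 ± 7.57 FPKM.

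In the remaining role the tested members were Pparg, Ucp1, Ghr and Nnat, and all 4 had a positive log2 difference (median 0.81). Neuronatin (Nnat), an imprinted gene that fat cells express, stood at 5.57, 9.11 and 5.31 FPKM in control glands and at 11.0, 24.3, 10.1 and 16.8 FPKM in the knockouts. Every knockout exceeded every control, M44440 being the second highest. The difference was 1.09 ± 0.32 with an unadjusted p of 0.00892 and an adjusted p of 0.511, and it stayed between 0.86 and 1.30 over the 15 alternatives (adjusted p between 0.341 and 0.995). Pparg, the transcription factor that drives fat cell formation, had means of 14.1 ± 6.15 and 18.7 ± 7.79 FPKM (0.36 ± 0.42). The growth hormone receptor gene Ghr stood at 43.0, 29.8 and 36.9 FPKM in control glands and at 41.5, 62.8, 90.9 and 30.3 FPKM in the knockouts, so its groups overlapped (0.53 ± 0.36, adjusted p = 0.938).

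Ucp1, whose protein uncouples respiration in brown and beige fat cells and makes heat, varied most between libraries. It stood at 98.9, 16.1 and 1.27 FPKM in the involuting control glands and at 321, 23.5, 133 and 0.378 FPKM in the knockouts. M43914 and M44440 were again lowest, and the difference had a standard error larger than itself (1.17 ± 1.93, adjusted p = 0.996). Mest, an imprinted gene known to mark expanding fat, stayed low at 0.511, 0.687 and 0.649 FPKM in control glands and 0.715, 0.695, 1.08 and 0.422 FPKM in the knockouts. Ppargc1a, a coactivator of mitochondrial genes, lay between 0.0699 and 1.08 FPKM over the 7 libraries.

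**Figure D2:**
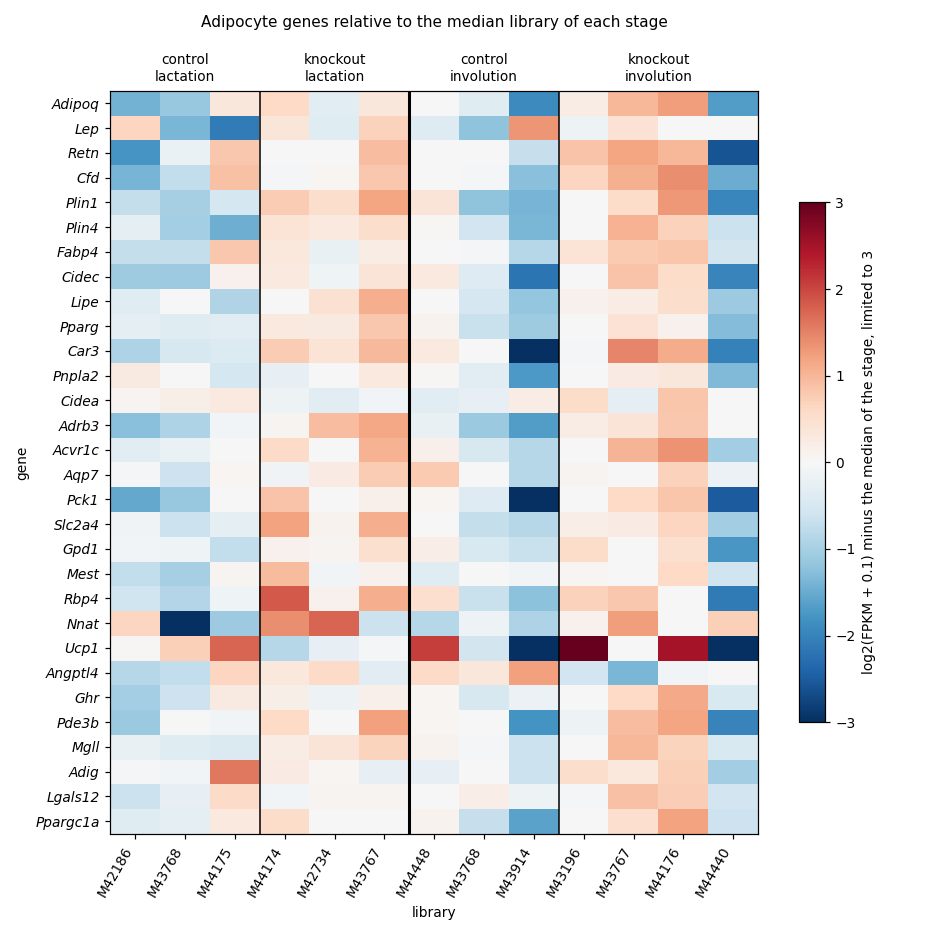
The 30 genes in the 13 libraries as log2(FPKM + 0.1) minus the median of the libraries of that stage, limited to ±3. The columns of control M43914 and knockout M44440 are blue for most genes at involution. The rows of Lep, Angptl4, Cidea, Nnat and Adrb3 depart from that pattern, those of Nnat and Adrb3 only in M44440.

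Within the genotypes the libraries differed along the whole list. Knockout M44440 was the lowest of the 4 knockouts for 26 of the 30 members and control M43914 was the lowest of the 3 controls for 25. Control M44448 was the highest control for 23 members and knockout M44176 the highest knockout for 17. Counts of members on one side at involution are therefore not counts of independent observations. The 30 genes together summed to 11718, 10638 and 6295 FPKM in the controls M44448, M43768 and M43914. In the knockouts M43196, M43767, M44176 and M44440 they summed to 14875, 19937, 21379.6 and 6049 FPKM, so the lowest library of each genotype lay at a like level. The relative depth of M43914 was 1.02 and that of M44440, the deepest of its table, 1.50.

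Leaving out 1 library at a time moved the median difference of the members at involution between 0.23 and 0.94. Without control M43914 it was 0.23 and 19 of 28 members stayed positive. Without knockout M44176 it was 0.32, with 24 of 27 positive. Without control M44448 it was 0.81, with 25 of 27 positive. Without knockout M44440 it was 0.94, with 27 of 28 positive, against a median of 0.0016 for all genes in that fit. No member passed the adjusted threshold without any 1 of the 7 libraries, and the lowest adjusted p of a member was then 0.247 (without M44448). Under some alternative 12 of the 28 members turned sign, 8 of them (Aqp7, Car3, Cidec, Gpd1, Pck1, Pnpla2, Rbp4 and Ucp1) without control M43914.

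Skeletal muscle transcript went with part of this order, and its part in the result was not tested. The muscle sum was largest in M44176 and M44448, the libraries highest for most members of their groups. It was 776 FPKM in knockout M43767, beside 19937 FPKM of the members, and 4.91 FPKM in knockout M43196, beside 14875 FPKM. Without the 3 libraries above 500 FPKM of muscle markers, a limit set after the data had been seen, 2 controls and 2 knockouts remained. The median of the members was then 0.33, with 22 of 27 positive.

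**Figure D3:**
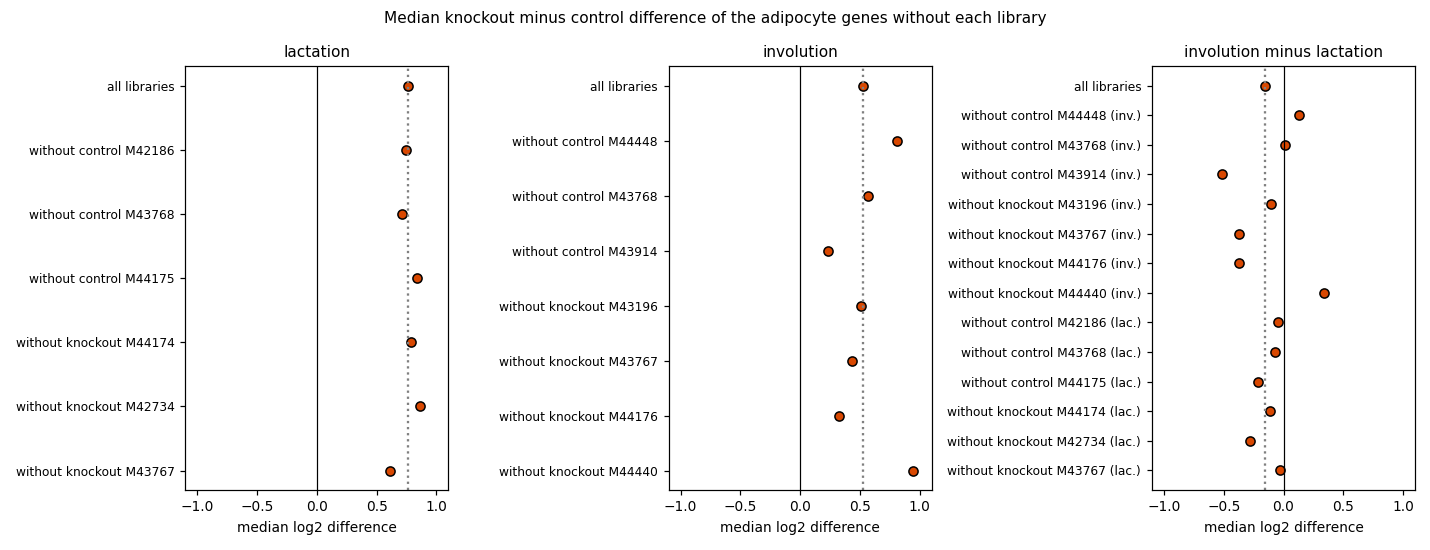
Median log2 difference, knockout minus control, of the adipocyte genes tested, with all libraries (dotted line) and without each library in turn, at lactation, at involution and for the difference between the stages. The lactation medians lie between 0.61 and 0.86, the involution medians between 0.23 and 0.94, and the difference between the stages lies on both sides of 0.

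The lactating glands gave a narrower picture with the same side. Of 26 members tested, 24 had a positive log2 difference (51.2% of all 9560 genes tested had), with a median of 0.76 against 0.01 for all genes. None passed the adjusted threshold, against 1 of all genes (0.0105%), and 12 members reached an unadjusted p under 0.05, against 2.38% of all genes. The groups did not overlap for 11 of the 26 members, against 6.06% of all genes. Higher in every knockout were 10 members (2.89% of all genes), namely Plin1, Plin4, Lipe, Pparg, Car3, Adrb3, Slc2a4, Gpd1, Rbp4 and Mgll, and lower in every knockout was Cidea (3.17% of all genes). Acvr1c, Mest, Ucp1 and Ppargc1a were too low to be tested. Control M44175 was the highest control for 20 of the 30 members and knockout M43767 the highest knockout for 18. Members thus shared much of their order over libraries, and these counts of members are not counts of independent observations.

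Plin1 was the member with the smallest p at lactation. It stood at 3.13, 2.57 and 3.61 FPKM in the controls M42186, M43768 and M44175 and at 8.99, 7.52 and 12.0 FPKM in the knockouts M44174, M42734 and M43767. The lowest knockout was above the highest control by more than the range of the controls, and the difference was 1.40 ± 0.23 (unadjusted p = 0.000337, adjusted p = 0.644). With libraries weighted by their quality (limma array weights) the difference was 1.58 and passed at an adjusted p of 0.0278, the only member to pass under any alternative, and over all 14 alternatives the adjusted p ran from 0.0278 to 1.00. Plin4 had means of 1.47 ± 0.661 and 3.62 ± 0.297 FPKM (SD, n = 3 each), a difference of 0.97 ± 0.25. Cidec (0.89 ± 0.33) overlapped through control M44175 at 35.1 FPKM.

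Cidea, at the same stage, stood at 1643, 1748 and 1910.4 FPKM in control glands and 1391, 1236 and 1477 FPKM in the knockouts. Every knockout was below every control, although the fitted difference was small beside its error (-0.30 ± 0.34, adjusted p = 0.998) and was 0.023 under quantile normalization. Fabp4 stood at 543, 541 and 1556 FPKM in control glands and 1120.0, 761 and 1046 FPKM in the knockouts, with control M44175 highest of the 6 (0.39 ± 0.46). Adig had a negative difference (-0.39 ± 0.42), carried by control M44175 at 153 FPKM against 48.7 and 48.3 FPKM in the other controls. Without that library the difference of Adig was 0.10.

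Of the secreted proteins at lactation, 6 of 6 had a positive log2 difference, against 51.2% of all genes. Only 1, Rbp4, was higher in every knockout, against 2.89% of all genes. Rbp4 stood between 6.21 and 10.6 FPKM in control glands and between 12.6 and 41.4 FPKM in the knockouts, the largest difference of any member at this stage (1.52 ± 0.40, adjusted p = 0.998). Adipoq stood at 27.7, 33.5 and 94.1 FPKM in control glands and at 112, 58.2 and 93.4 FPKM in the knockouts. Cfd stood at 194, 308 and 951 FPKM in control glands and at 490.1, 538 and 903 FPKM in the knockouts. In both, control M44175 lay within or above the knockouts while the other 2 controls lay below them.

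Retn stood at 20.8, 61.9 and 126 FPKM in the lactating control glands and at 70.5, 72.1 and 136 FPKM in the knockouts. Lep stood at 4.28, 0.984 and 0.554 FPKM in control glands and at 3.50, 2.09 and 4.45 FPKM in the knockouts, and here M44175 was the lowest library. Angptl4 was low at this stage, at 3.21, 3.46 and 9.18 FPKM in control glands and 7.36, 8.71 and 4.64 FPKM in the knockouts. These 3 genes overlapped between genotypes (0.75 ± 0.58, 0.77 ± 0.47 and 0.48 ± 0.35).

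Genes of fat breakdown had a positive log2 difference at lactation for 6 of 6 tested. Adrb3 stood at 0.634, 0.821 and 1.56 FPKM in control glands and at 1.75, 3.24 and 3.79 FPKM in the knockouts (1.01 ± 0.27, unadjusted p = 0.00563). Lipe stood at 8.28, 10.6 and 5.65 FPKM in control glands and at 10.9, 14.7 and 22.9 FPKM in the knockouts (0.94 ± 0.35, unadjusted p = 0.0283). For both genes the lowest knockout lay just above the highest control. Mgll was at 9.49 ± 0.666 and 16.3 ± 2.57 FPKM, whereas Pnpla2, at 78.0, 64.9 and 44.8 FPKM in control glands and 54.2, 64.5 and 79.3 FPKM in the knockouts, showed no separation (0.16 ± 0.32).

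Of the glucose and glycerol phosphate genes, 4 of 4 had a positive log2 difference, against 51.2% of all genes. Higher in every knockout were 3, against 2.89% of all genes, and these genes shared much of their order over libraries. Car3 stood at 112, 152 and 159.8 FPKM in control glands and at 361, 285 and 421 FPKM in the knockouts (1.39 ± 0.29, unadjusted p = 0.00147, adjusted p = 0.998). Gpd1 stood at 59.9, 58.0 and 37.7 FPKM in control glands and at 68.5, 66.3 and 88.1 FPKM in the knockouts. Slc2a4 had means of 2.24 ± 0.429 and 5.23 ± 1.93 FPKM, and Pck1 (1.09 ± 0.34) overlapped through M44175 at 6.31 FPKM.

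Pparg, at 4.24 ± 0.152 and 7.42 ± 1.63 FPKM, was apart between the genotypes at lactation (0.72 ± 0.22, unadjusted p = 0.0110). Ghr stood at 8.62, 11.5 and 21.4 FPKM in control glands and at 20.0, 15.9 and 19.6 FPKM in the knockouts. Nnat stood at 1.57, 0 and 0.405 FPKM in control glands and at 2.71, 3.50 and 0.585 FPKM in the knockouts. Both overlapped. Ucp1 stood between 0.180 and 0.813 FPKM in control glands and between 0.0508 and 0.168 FPKM in the knockouts. Every knockout was thus below every control, at values too low to be tested. Mest stayed at or below 0.737 FPKM in all 6 libraries.

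Control M44175, the library that stood apart in its sum of FPKM, was the highest control for 20 of the 30 members at lactation. Without it the median difference of the members was 0.84, with 24 of 26 positive, against a median of -0.00071 for all genes in that fit. Over all libraries left out in turn the lactation median ran from 0.61 (without knockout M43767) to 0.86 (without knockout M42734), so no single library moved it by more than 1.5 times. Without knockout M44174, the lactation library with the most muscle transcript, it was 0.79.

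**Figure D4:**
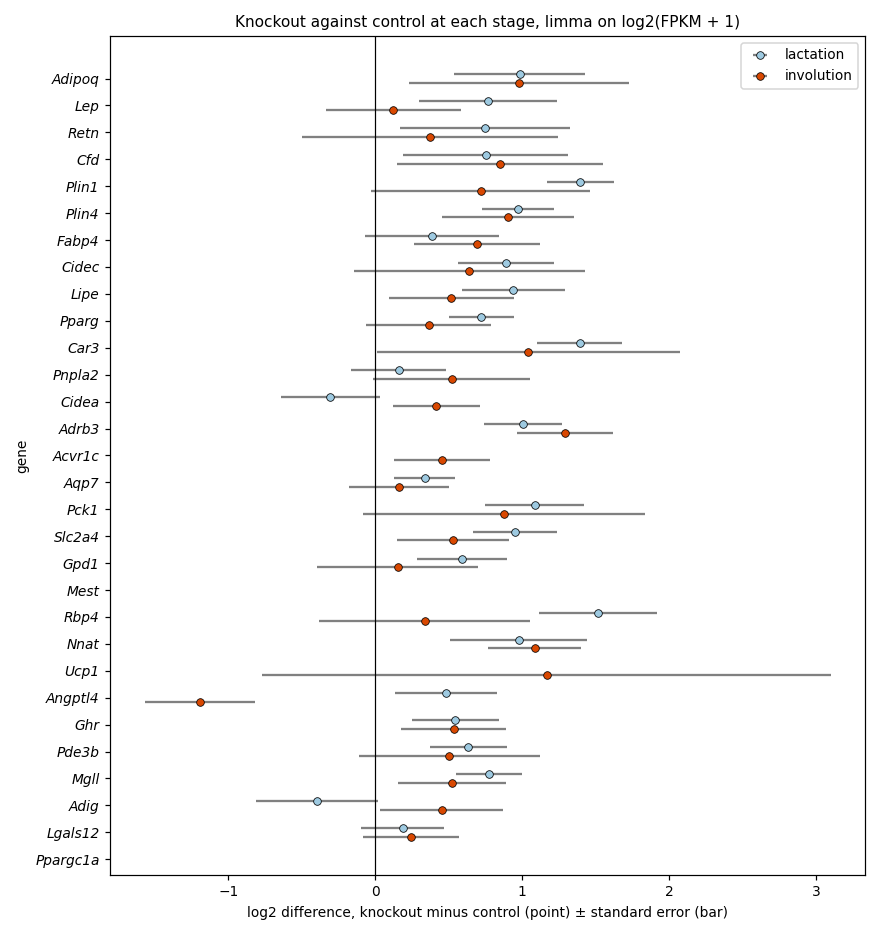
Log2 difference, knockout minus control, of each tested member at lactation and at involution (points) with its standard error (bars), from limma on log2(FPKM + 1). Most points lie right of 0 at both stages, the involution errors are wider, and Angptl4 at involution lies to the left.

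Whether the genotype difference of the members itself changed between the stages was asked by subtracting the lactation difference from the involution difference in 1 fit of all 13 libraries. Of 28 members tested 18 were negative and 10 positive (48.9% of 12667 genes were negative), with a median of -0.15, and 0 passed the adjusted threshold, against 10 of all genes (0.0789%). An unadjusted p under 0.05 was reached by 1 member, Angptl4 (3.35% of all genes), at -1.67 ± 0.55 (unadjusted p = 0.00981, adjusted p = 0.999), and over the 22 alternatives it stayed between -2.03 and -1.39 with adjusted p between 0.216 and 1.00. The values of 4 further members, picked after the results had been seen, were -0.00 ± 0.99 for Adipoq, -0.68 ± 0.90 for Plin1, -1.18 ± 0.94 for Rbp4 and 0.72 ± 0.40 for Cidea. The median ran from -0.52 without control M43914 at involution to 0.34 without knockout M44440, was 0.13 without control M44448, and 18 of the 28 members turned sign under some alternative. The direction of the median therefore rested on single involution libraries.

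Between the stages, levels are only set side by side, because the deposited tables may have been normalized separately. In the controls 21 of the 30 members were higher in every involution library than in every lactation library, and in the knockouts 17 were, against 73.3% and 80.1% of all genes, so these counts are near or below the background. The median ratio of involution to lactation means was 5.18 in the controls and 4.48 in the knockouts, against 2.73 and 2.91 for all genes. After all 13 libraries were rescaled together the medians were 2.24 and 1.83, against 1.13 and 1.19, and 56.7% and 46.7% of the members kept a ratio above 2, against 20.4% and 21.6% of all genes. In the deposited values Angptl4 was 155-fold higher at involution in the controls and 52.3-fold in the knockouts. Pck1 was 17.2-fold and 13.5-fold higher, Plin4 12.5-fold and 9.76-fold, and Adrb3 9.98-fold and 8.27-fold. After the common rescaling these ratios were lower, at 66.2 and 21.4 for Angptl4, 7.53 and 5.56 for Pck1, 5.13 and 4.01 for Plin4, and 4.32 and 3.36 for Adrb3.

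Ucp1 was 86.7-fold higher at involution in the controls and 1021.6-fold in the knockouts, ratios that rest on lactation means of only 0.447 and 0.117 FPKM. Adipoq was 2.89-fold and 3.67-fold higher, nearer to the ratio of all genes, and Pnpla2 2.69-fold and 3.50-fold. Rescaled, Ucp1 was at 38.8 and 406.9, Adipoq at 1.27 and 1.50, and Pnpla2 at 1.12 and 1.43. Cidea and Lgals12 went the other way and were higher in every lactation library in both genotypes, against 2.34% and 2.44% of all genes. Cidea was 6.82-fold higher at lactation in the controls and 3.90-fold in the knockouts, and Lgals12 2.09-fold and 1.70-fold. Rescaled, the ratio of involution to lactation was 0.0609 and 0.104 for Cidea and 0.204 and 0.241 for Lgals12. In the deposited values these 2 were the only members with a ratio below 1, in both genotypes. After rescaling over all libraries Adig in the controls (0.647) and Lep and Mest in the knockouts (0.867 and 0.633) were below 1 too.

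Other genes of fat were read from lists that hold no member. Of 23 other white fat cell genes, 22 had a positive log2 difference at involution (median 0.37) and 0 passed. Among them Sncg, a synuclein known from white fat, stood between 13.3 and 27.9 FPKM in control glands and between 45.2 and 90.1 FPKM in the knockouts, apart between the genotypes (1.68 ± 0.32, unadjusted p = 0.000793, adjusted p = 0.245). Tusc5, a gene of insulin-stimulated glucose transport in fat, was at 0.72 ± 0.39. At lactation 16 of 21 of these genes were positive (median 0.56).

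Other genes that form fat cells, beside the member Pparg, lay on both sides. Of 14 adipogenic factors tested at involution 7 were positive and 7 negative (median -0.03), and a difference from the members was not tested. Cebpd, an early C/EBP factor, was at -0.65 ± 0.24 (unadjusted p = 0.0290) and Zfp423, a factor of preadipocytes, at -0.46 ± 0.20. Cebpa, a C/EBP factor of mature fat cells picked after its values had been seen, was at 0.60 ± 0.53. Of 13 genes of insulin and catecholamine signalling 10 were positive (median 0.23), with the adenylate cyclase gene Adcy5 at 0.82 ± 0.34 and apart. Of 15 lipogenic genes that milk fat synthesis also uses 9 were positive (median 0.14), with Xdh at -0.41 ± 0.22 and Scd2 at -0.30 ± 0.33. None of these genes passed the adjusted threshold.

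Brown fat genes, listed without Ucp1, were positive for 9 of 9 tested at involution (median 0.64), with Slc27a2 at 0.58 ± 0.36 and Elovl3 at 1.32 ± 0.87. Beside these, 2 genes were picked after their values had been seen. Cox8b, a subunit of cytochrome oxidase found in brown fat and muscle, stood at 131, 33.6 and 17.4 FPKM in control glands and at 417, 122, 339.7 and 14.9 FPKM in the knockouts. Acta1, the actin of skeletal muscle, stood at 417, 32.0 and 18.6 FPKM in control glands and at 1.68, 239.8, 1525 and 17.96 FPKM in the knockouts. At involution knockout M43196 had the highest Ucp1 and Cox8b and the lowest Acta1, and M44176 and M44448 were high in all 3. Which cells these transcripts came from was not tested.

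**Figure D5:**
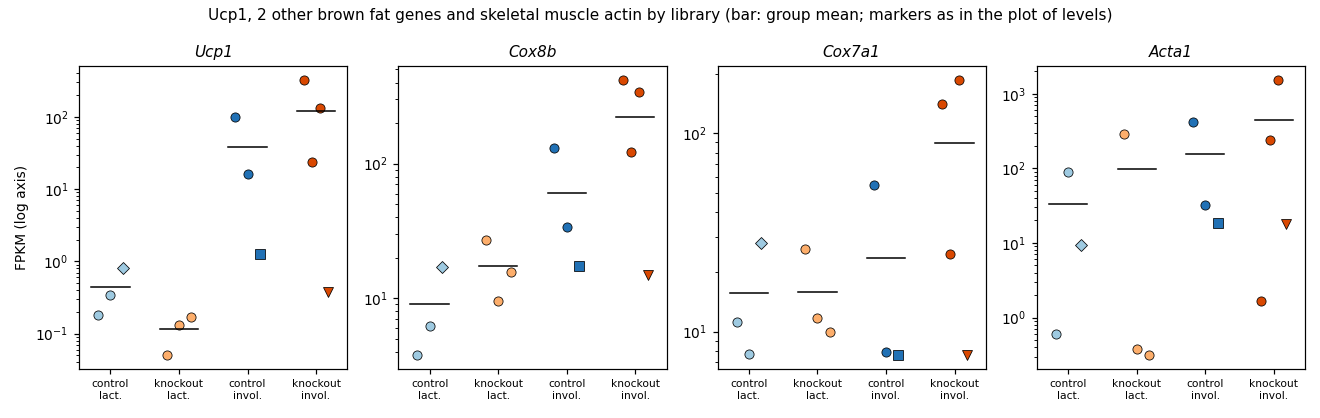
FPKM (log axis, a separate range in each panel) of Ucp1, Cox8b, Cox7a1 and skeletal muscle actin (Acta1) in each library, with bars at the group means. Knockout M43196 at involution has the highest Ucp1, at 321 FPKM, with Acta1 at 1.68 FPKM, and control M43914 (square) and knockout M44440 (triangle) are low in Ucp1 and Cox8b.

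Markers of other cells of the gland were read beside the members, and their part in the results was not tested. All 8 fibroblast markers were positive at involution (median 0.77), with Col3a1 at 1.17 ± 0.41 and Pdgfra at 0.62 ± 0.23, and their sum lay between 182 and 416 FPKM in control glands and between 315 and 816 FPKM in the knockouts. Macrophage markers were positive for 9 of 10 (median 0.39), with Mrc1 at 0.82 ± 0.22 and Itgam at 0.41 ± 0.27, with sums of 421 to 553 and 347 to 1054 FPKM. Basal epithelial markers were positive for 8 of 9 (median 0.40), with Myh11 at 0.40 ± 0.19 and Cnn1 at 0.60 ± 0.30. Their sums, 252 to 428 and 477 to 559 FPKM, did not overlap. Of the 9 genes only 1 was itself higher in every knockout, against 2.67% of all genes. An unadjusted limma p under 0.05 was reached by 0 of them, against 6.84% of all genes. Endothelial markers were positive for 5 of 8 (median 0.15), with Emcn at 0.48 ± 0.18 and Vwf at 0.54 ± 0.26. Luminal epithelial markers were split 5 to 5 (median 0.06), with Cdh1 at -0.41 ± 0.19 and Krt8 at 0.44 ± 0.24, and adipose progenitor markers were positive for 3 of 7 (median -0.07), with Cd34 at 0.69 ± 0.26. At lactation fibroblast and endothelial markers were positive for 7 of 7 each (medians 0.73 and 0.63) and luminal markers for 4 of 10 (median -0.14). Higher in every lactating knockout were 6 endothelial and 2 fibroblast markers, against 2.89% of all genes. An unadjusted limma p under 0.05 was reached by 4 endothelial and 2 fibroblast markers, against 2.38%, and 0 passed the adjusted threshold. At lactation macrophage markers were positive for 5 of 6 tested, basal epithelial markers for 7 of 9 and adipose progenitor markers for 3 of 5 (medians 0.34, 0.21 and 0.36). Mostly positive differences in lactating glands were thus shared by the members with fibroblast, endothelial, macrophage and basal epithelial markers.

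At involution skeletal muscle markers were split 4 to 4, with Myh1 at 1.21 ± 1.40 and Myh4 at -0.94 ± 1.95. Erythrocyte markers were positive for 0 of 4 (median -0.60), with Hba-a1 at -0.51 ± 0.67, and their sums, 64.4 to 962 FPKM in control glands and 87.3 to 2113 FPKM in the knockouts, were lowest in M43914 and M44440, as most members were. Of 5 skin keratinocyte markers 1 could be tested, Krt10 at 1.18 ± 0.96. The sum of the 5 was 140 FPKM in knockout M43767, against 1.51 to 3.64 FPKM in the other involution libraries. Without M43767 the median difference of the members at involution was 0.43. Of 7 lymph node markers 2 could be tested, Cd3g at 0.26 ± 0.19 and Cd79a at -0.51 ± 0.39, and no involution library summed above 5.63 FPKM over the 7. At lactation control M43768 stood apart, with 39.0 FPKM of lymph node markers against 0.463 to 2.61 FPKM in the other 5, and without it the median difference of the members at lactation was 0.71.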

How the data were processed

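RNA of 13 whole mammary glands was made into TruSeq RNA libraries and sequenced on a HiSeq2000, per the labels' protocols. The deposited values are FPKM per gene and library, 1 table a stage, which the authors made with CASAVA, cutadapt and TopHat on build mm9, per the submitters' processing notes. Their versions, the program that gave the FPKM, its annotation and any filter are not given in the sources available. An exact 0 can be an entry without an estimate (4649 symbols were at 0 in every library).

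A median-of-ratios factor per library was taken out within each table, and values were tested as log2(FPKM + 1), which understates changes of low genes. A gene entered a fit if 3 or more of its libraries reached 1 FPKM. Tests were two-sided in limma 3.58.1 (lmFit, eBayes with trend, R 4.3.3), with p-values adjusted by Benjamini-Hochberg across every gene of the fit and called below 0.05. Each stage was fitted alone, and the change of the genotype effect between stages in a 4-group fit of 13 libraries. Stages were otherwise only set side by side. FPKM are printed as deposited, with SD over libraries, and log2 differences with SE.

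Within a stage every library has its own mouse number. Fragment counts are unknown, so depth was estimated relative to each table's mean from the steps of values under 0.3 FPKM, and counting intervals are left out. Scripts were tested on simulated data. Alternatives changed the pseudocount, filter, rescaling, weights, treatment of zeros and libraries.

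The members and gene lists were chosen with earlier results of these data known. FPKM in every library are given for members apart between genotypes at involution, the 2 most abundant members of each role, Lep, Ucp1 and Mest. From each other list the 2 genes with the smallest p at involution are named, apart from 1 that is not reported here.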

Additional observations from a re-analysis of the deposited data

Results flagged for a closer look

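Of 62 genes examined for a library far from the other 3 knockouts at involution, 4 had one, none of them a member. For normally distributed values chance puts about 1 in 20 groups past this limit. The gaps were taken on FPKM without logarithms, so the rate by chance for these values is not known. The muscle actin gene Acta1 was far above in knockout M44176, with a gap to the next library of 0.8437 of the range of the group, and the muscle myosin gene Myh4 likewise in the same library (0.9893). That library was the highest knockout for 17 of the 30 adipocyte genes. The skin keratin gene Krt10 stood at 53.5 FPKM in knockout M43767 against 1.62 to 3.43 FPKM in the other 3 (gap 0.9652 of the range), and Alas2, a heme synthesis gene of red cells, at 19.8 FPKM in knockout M43196 against 1.15 to 2.82 FPKM (0.9104).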

How the results depend on the processing

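No paired analysis was run, as the groups compared share at most 1 mouse number and whether a mouse was sampled at both stages is not given. The fit of all 13 libraries took them as independent. Without the 4 libraries of shared mouse numbers the median difference of the members between the stages was -0.12. Precision is limited by 3 or 4 libraries a group and by unknown depth. No member passed the threshold under any alternative except Plin1 at lactation with array weights (1.58, 1 member called). Muscle-rich libraries were left out by a limit chosen after seeing the data, and causes were not tested.

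Genes called at lactation were 2 with a pseudocount of 0.1, 9 with array weights, 0 without genes at 0 in a whole group, 0 without muscle-rich libraries, and 0 to 3 without each library in turn. At involution they were 20 with array weights, 14 with robust empirical Bayes, 1 without genes at 0 in a whole group, 1 without muscle-rich libraries, and 2 to 9 without each library. For the difference between stages they were 16 with array weights, 1 without genes at 0 in a whole group, 2 without the 4 libraries of shared mouse numbers, 3 without muscle-rich libraries, and 6 to 12 without each library. Rescaled over all libraries, the median stage ratios were 2.24 and 1.83.

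Single genes whose log2 difference turned sign were, at lactation, Cidea with quantile normalization (0.023) and Adig with array weights (0.010). Without each lactation library in turn, Adig ran from -0.65 to 0.10, Pnpla2 from -0.11 to 0.38 and Lgals12 from -0.022 to 0.46. Without muscle-rich libraries the involution differences were -0.14 for Lep, -0.47 for Retn, -0.10 for Pde3b, -0.27 for Lgals12, -0.13 for Krt10 and 0.23 for Alas2, and that of Hba-a1 was 0.12 with array weights. Without each involution library in turn, Lep ran from -0.36 to 0.74, Cidec from -0.078 to 1.25, Car3 from -0.014 to 1.76 and Pnpla2 from -0.014 to 0.90. Aqp7 ran from -0.21 to 0.53, Pck1 from -0.086 to 1.61, Gpd1 from -0.087 to 0.67, Rbp4 from -0.049 to 0.98, Ucp1 from -0.24 to 2.72, Myh4 from -2.71 to 0.52 and Hba-a1 from -1.14 to 0.31. The change of Adipoq between stages was 0.037 with no rescaling, 0.18 without the 4 libraries of shared mouse numbers, and -0.59 to 0.62 without each library.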
